A study of Homo sapiens with 6 samples.

Results

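The Hippo pathway genes described here are 10 core kinases, adaptors and upstream regulators: STK3, STK4, LATS1, LATS2, SAV1, MOB1A, MOB1B, NF2, PTPN14 and AMOT. They were taken by symbol from a table of 58825 Ensembl genes, and each matched 1 identifier. All 10 were among the 19081 genes that had enough counts to be tested. The libraries are RNA sequencing of FaDu, an established squamous carcinoma line of the hypopharynx, in 2 groups of 3. One group carried a short hairpin RNA against NSUN2, an RNA 5-methylcytosine transferase (shNSUN2). The other is labelled by the line alone (FaDu), and its labels do not say whether it carried a control hairpin. All libraries share the same line, and the labels name no treatment or time. No group labelled as a control hairpin was used here, so loss of NSUN2 and the delivery of a hairpin cannot be told apart. The labels name 1 hairpin group and do not say whether its cells were a clone or a pool.

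In the Hippo cascade, the kinases STK3 and STK4 (MST2 and MST1) bind the scaffold SAV1 and phosphorylate LATS1 and LATS2 and their coactivators MOB1A and MOB1B. LATS kinases then phosphorylate the transcription cofactors YAP1 and WWTR1 (TAZ), which keeps them in the cytoplasm and away from the TEAD DNA-binding factors. NF2, PTPN14 and AMOT act at cell junctions, where they recruit LATS kinases or hold YAP1 itself. The cascade restrains growth in squamous epithelia, and LATS2 and PTPN14 are also known as transcriptional targets of YAP1, so that they form a feedback.

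NSUN2 fell from 166 ± 8.94 to 41.6 ± 8.05 CPM (SD, n = 3), the direction the labels give. CPM are estimated counts scaled to a library total of 1000000 after adjustment by trimmed means (TMM). Library totals ran from 53612358 to 72788971 estimated counts. Nothing in the labels says whether replicates were separate cultures, so the p-values speak only to how far these libraries vary, and that variation may be technical. In bulk RNA, fewer cells with a transcript and less of it per cell cannot be told apart. Of 8 epithelial markers listed for squamous tissue all were tested, with a summed level of 3968 to 4059 CPM in FaDu and 1940 to 2349 CPM in shNSUN2. KRT5, KRT14, KRT6A, KRT17, TP63, SFN and DSG3, 7 of the 8, fell. EPCAM, which is part of the sums, rose from 129 ± 2.49 to 192 ± 16.3 CPM. Markers of other tissues also differed: summed levels of 10 prostate markers were 39.6 to 43.1 CPM in FaDu and 60.7 to 83.2 in shNSUN2, and those of 7 plasma cell markers 0 to 0.267 and 2.10 to 6.77 CPM. MSMB, among the prostate markers, was at 0 in every FaDu library, as were IGKC, IGHM and IGLC2 among the plasma cell markers. The part of these markers in the Hippo values was not tested. Replicate 3 of shNSUN2 stood apart by base composition and by exonic length. Across 14360 genes, its log2 deviation from the gene mean had a Spearman rho of 0.394 with GC content. The other 5 libraries had -0.204 to -0.000532. With exonic length, rho was -0.306 in shNSUN2 replicate 3, against 0.0476 to 0.132 in the other 5 libraries. Genes are not independent replicates.

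Of the 10 genes, 4 passed the test (edgeR's quasi-likelihood test, Benjamini-Hochberg adjusted p under 0.05 over all tested genes, two-sided). PTPN14 and STK4 fell, and AMOT and NF2 rose. Over all tested genes 18.5% were called, 8.54% higher and 9.97% lower. The median log2 fold change of the 10 was -0.13, and that of all tested genes was -0.01. The core kinases LATS1, LATS2 and STK3, the scaffold SAV1 and the coactivators MOB1A and MOB1B did not pass. In 6 of the 10 the groups did not overlap (3 with all shNSUN2 libraries above FaDu and 3 with all below). The same held for 42.3% of all tested genes, 20.3% above and 22.1% below.

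**Figure D1:**
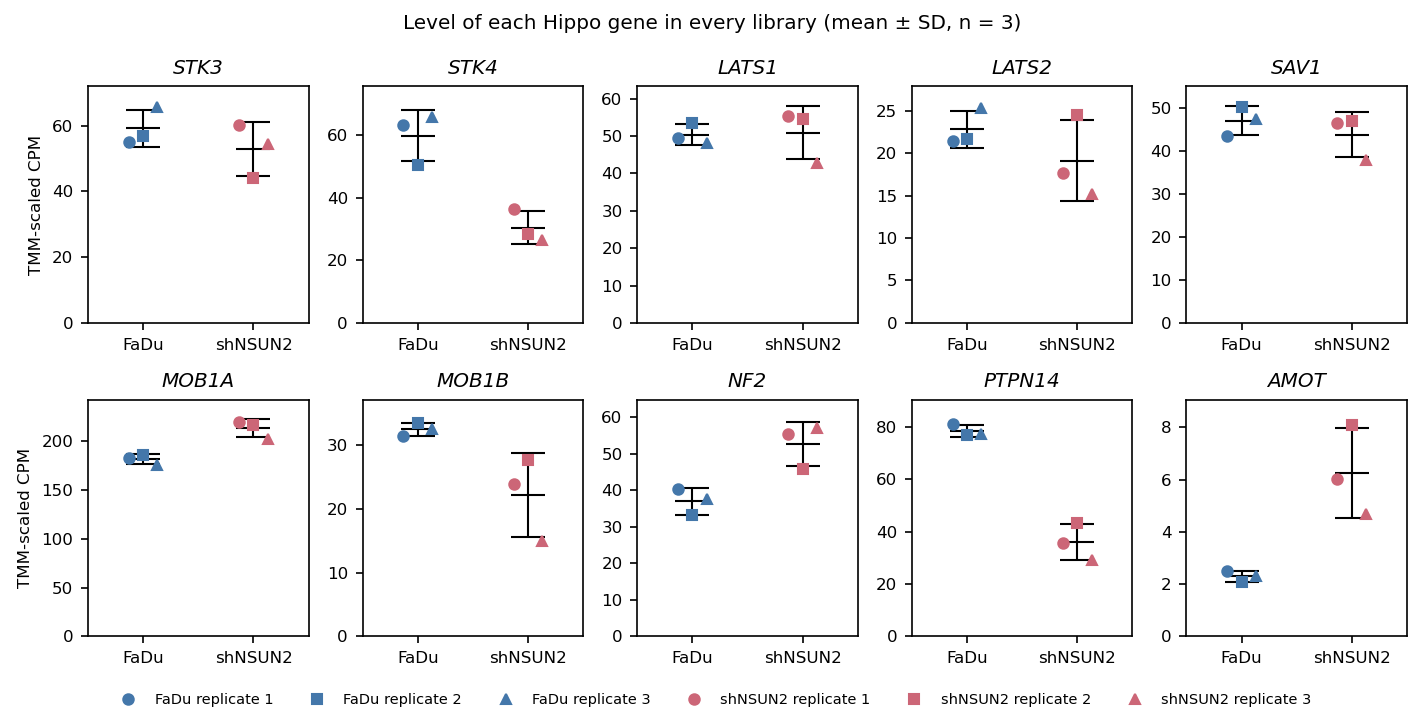
TMM-scaled CPM (y axis, from 0) of each of the 10 Hippo genes in every library, by group, with replicates marked by shape and black bars for mean ± SD (n = 3). PTPN14 and STK4 lie lower in all 3 shNSUN2 libraries, AMOT and NF2 lie higher in all 3, and STK3, LATS1, LATS2 and SAV1 overlap.

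STK4, 1 of the 2 upstream kinases, lies on chromosome 20 from 44966474 to 45079959 (GRCh38, plus strand). It had 63.2, 50.5 and 65.7 CPM in FaDu and 36.4, 28.5 and 26.35 CPM in shNSUN2. The lowest FaDu library, replicate 2, was still above the highest shNSUN2 library. The mean fell from 59.8 ± 8.14 to 30.4 ± 5.29 CPM, a log2 fold change of -0.98 (SE 0.17, 95% interval -1.37 to -0.58, edgeR adjusted p = 0.00838). This call held in each of 11 other ways of processing (another tool, scaling or filter, a replicate block, a GC and length correction, and each library left out), at adjusted p of 2.66e-05 to 0.0402.

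Its paralog STK3 (chromosome 8, 98371228 to 98942827, minus strand) had 55.2, 56.8 and 65.6 CPM in FaDu and 60.1, 43.97 and 54.4 CPM in shNSUN2. The groups overlapped, since shNSUN2 replicate 1 lay above FaDu replicates 1 and 2. The log2 fold change was -0.16 (SE 0.15, interval -0.51 to 0.18, edgeR adjusted p = 0.491). A loss as deep as that of STK4 lay outside this interval. With a correction for GC content and length the value was 0.06, so its sign changed with that correction. It was -0.20 with the same correction once shNSUN2 replicate 3 was dropped. DESeq2 and upper-quartile scaling gave -0.15 and -0.25.

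SAV1, the scaffold that joins both kinases to LATS (chromosome 14, 50632058 to 50668331, minus strand), had 43.5, 50.2 and 47.4 CPM in FaDu. In shNSUN2 it had 46.5, 47.0 and 37.9 CPM, and the groups overlapped. Its log2 fold change was -0.10 (SE 0.13, interval -0.41 to 0.21, edgeR adjusted p = 0.639). Of its exonic bases 14.9% overlap ATL1 on the opposite strand, which had 40 to 110 estimated counts per library against 2557 to 3546 for SAV1.

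LATS1, a kinase that phosphorylates YAP1 and TAZ (chromosome 6, 149658153 to 149718256, minus strand), had 49.5, 53.5 and 48.2 CPM in FaDu. It had 55.4, 54.6 and 42.8 CPM in shNSUN2, with replicate 3 below every FaDu library and replicates 1 and 2 above. The log2 fold change was 0.01 (SE 0.14, interval -0.31 to 0.34, edgeR adjusted p = 0.954). Its sign changed in 5 of the 11 settings, all with adjusted p of 0.797 to 0.981.

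LATS2, the second LATS kinase (chromosome 13, 20973032 to 21061547, minus strand), had 21.4, 21.7 and 25.3 CPM in FaDu. It had 17.7, 24.5 and 15.2 CPM in shNSUN2, where replicate 2 lay within the FaDu range and replicates 1 and 3 below it. The log2 fold change was -0.25 (SE 0.19, interval -0.70 to 0.19, edgeR adjusted p = 0.404). It was -0.11 without shNSUN2 replicate 3 and -0.47 without shNSUN2 replicate 2, neither past the threshold.

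MOB1A, the more abundant coactivator of LATS kinases (chromosome 2, 74152528 to 74178898, minus strand), had 182, 186 and 175.5 CPM in FaDu and 219.6, 217 and 202 CPM in shNSUN2. Every shNSUN2 library lay above every FaDu library. The log2 fold change was 0.23 (SE 0.10, interval 0.00 to 0.47) and did not pass the test (edgeR adjusted p = 0.145). Without shNSUN2 replicate 3 it was 0.27 and passed (edgeR adjusted p = 0.034). Its pseudogenes MOB1AP1 and MOB1AP2 were listed at 0 in all 6 libraries.

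MOB1B (chromosome 4, 70902326 to 71022449, plus strand) lay the other way, with 31.5, 33.5 and 32.5 CPM in FaDu and 23.9, 27.7 and 14.97 CPM in shNSUN2. Every shNSUN2 library lay below every FaDu library, and replicate 3 was the lowest. The log2 fold change was -0.55 (SE 0.22, interval -1.05 to -0.05, edgeR adjusted p = 0.117), which did not pass the test. With the GC and length correction it was -0.41 and passed (edgeR adjusted p = 0.0404), and without shNSUN2 replicate 3 it was -0.33 (adjusted p = 0.0729). MOB1B shares 199 exonic bases, 2.3% of its exonic length, with the neighbouring DCK on the same strand. DCK had 1973, 1976 and 2450 estimated counts in FaDu and 3229, 2624 and 3431 in shNSUN2, opposite in direction to MOB1B.

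NF2, which encodes merlin, a membrane scaffold that brings LATS kinases to the cortex, lies on chromosome 22 from 29603556 to 29698598 (plus strand). It had 40.45, 33.1 and 37.6 CPM in FaDu and 55.4, 45.9 and 57.05 CPM in shNSUN2. The lowest shNSUN2 library, replicate 2, was above the highest FaDu library. The mean rose from 37.1 ± 3.70 to 52.8 ± 6.01 CPM, a log2 fold change of 0.51 (SE 0.14, interval 0.19 to 0.83, edgeR adjusted p = 0.0406). Leaving out FaDu replicate 1, 2 or 3 ended the call (adjusted p = 0.0857, 0.163 and 0.1275), as did leaving out shNSUN2 replicate 1 (0.106). It was lost in 7 of the 11 settings in all, among them upper-quartile scaling (adjusted p = 0.0601) and no filter on low counts (0.0546), while the log2 fold change stayed between 0.43 and 0.60 in the 11 settings. NF2 is the most GC-rich of the 10, at 55.95% of its longest transcript, and with the GC and length correction its log2 fold change was 0.48 (edgeR adjusted p = 0.0185).

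PTPN14, a junctional tyrosine phosphatase that binds YAP1 and the scaffold WWC1, had the largest fall of the 10. It lies on chromosome 1 from 214348696 to 214552449 (minus strand). It had 81.15, 76.9 and 77.3 CPM in FaDu and 35.5, 43.2 and 29.3 CPM in shNSUN2. The 3 FaDu libraries lay close together, and the highest shNSUN2 library was far below them. The mean fell from 78.5 ± 2.33 to 36.0 ± 6.97 CPM, a log2 fold change of -1.12 (SE 0.16, interval -1.49 to -0.76, edgeR adjusted p = 0.00377). The value lay between -1.28 and -0.95 over the 11 other settings and passed in each. Of all tested genes, 13.4% had a larger change in either direction.

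AMOT, angiomotin, which anchors YAP1 to actin and tight junctions, had the largest rise. It lies on chromosome X from 112774503 to 112840815 (minus strand). It had 2.502, 2.07 and 2.325 CPM in FaDu and 6.03, 8.10 and 4.68 CPM in shNSUN2, without overlap. In estimated counts these were 153, 113 and 174 against 408, 481 and 316. The mean rose from 2.30 ± 0.215 to 6.27 ± 1.72 CPM, a log2 fold change of 1.45 (SE 0.24, interval 0.89 to 2.00, edgeR adjusted p = 0.00736). It passed in each of the 11 settings, at log2 fold changes of 1.22 to 1.62. AMOT remained the lowest of the 10 in both groups, so this rise started from a low level. Angiomotin is also a gene of endothelial cells. Of 6 endothelial markers, the summed level was 4.10 to 5.84 CPM in FaDu and 31.8 to 54.7 CPM in shNSUN2, of which CDH5 alone made 28.0, 40.0 and 50.7 CPM. PECAM1, CLDN5, KDR and TIE1 were each at or under 0.267 CPM in every library, and VWF was 2.73 to 3.91 CPM in FaDu and 3.59 to 3.79 CPM in shNSUN2. KDR was at 0 in every FaDu library.

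**Figure D2:**
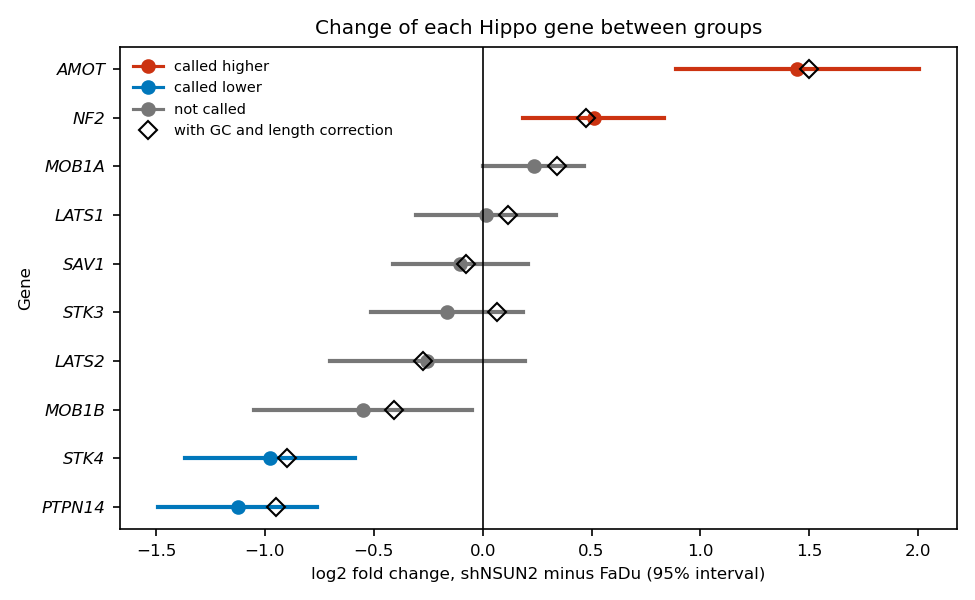
Log2 fold change of each gene between shNSUN2 and FaDu (x axis) with its 95% interval from the edgeR fit, coloured by call, and the value after the GC and length correction as an open diamond. AMOT at 1.45 and NF2 at 0.51 were called higher, STK4 at -0.98 and PTPN14 at -1.12 lower, and the corrected value of STK3 lies on the other side of 0.

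The promoters of LATS2 and PTPN14 are shown because both genes are known YAP1 targets and only these 2 of the 9 genes with a promoter in the RefSeq table (GRCh38.p14, 12 windows) held the TEAD motif. A window spans 250 bases before the transcript start to 50 after it, and the motif searched was GGAATG on either strand (CATTCC as the reverse complement), set in capitals below.
PTPN14: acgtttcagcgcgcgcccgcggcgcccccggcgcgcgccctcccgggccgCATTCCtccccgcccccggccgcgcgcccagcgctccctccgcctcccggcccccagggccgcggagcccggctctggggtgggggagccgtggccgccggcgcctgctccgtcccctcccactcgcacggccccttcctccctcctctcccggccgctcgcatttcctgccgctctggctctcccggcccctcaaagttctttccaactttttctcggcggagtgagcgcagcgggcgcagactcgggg
LATS2: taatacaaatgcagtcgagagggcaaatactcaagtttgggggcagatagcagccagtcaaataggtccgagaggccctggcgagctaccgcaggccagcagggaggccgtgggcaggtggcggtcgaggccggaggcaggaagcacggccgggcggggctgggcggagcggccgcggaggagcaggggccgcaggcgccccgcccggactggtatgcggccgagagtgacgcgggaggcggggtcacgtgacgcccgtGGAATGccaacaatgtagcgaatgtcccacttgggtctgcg
The PTPN14 window is chr1:214551553-214551852 on the minus strand, and its match begins at base -200 from the RefSeq start. This window lies inside the GENCODE span of the gene given above, which begins at 214552449 on that strand. No window at that start was searched. The LATS2 window is chr13:21061537-21061836 on the minus strand, with its match at base 10 after the start. Of 35116 promoter windows, 4928 (14.0%) held the motif, and of the 12 windows searched here 2 (16.7%) did, a share close to that of all windows. Of 18 windows of 16 genes in a list of YAP/TAZ targets that also holds LATS2 and PTPN14, 9 (50%) did. A match describes the letters and is not a measured binding site. PTPN14 fell by 1.12 on the log2 scale and LATS2, at -0.25, did not pass the test. Their intervals did not overlap, and the difference itself was not tested.

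The balance between paralogs of the core cascade was read from count ratios within each library. These need no scaling between libraries, but a GC or length bias of 1 library can remain in them. They are ratios of estimated counts, not of levels per length. STK3 counts were 0.8725, 1.12 and 0.999 times those of STK4 in FaDu and 1.65, 1.54 and 2.06 times in shNSUN2. All shNSUN2 ratios lay above all FaDu ratios, with shNSUN2 replicate 3 the highest, and STK3 counts exceeded those of STK4 in each shNSUN2 library. The mean log2 ratio differed by 0.81, from -0.01 ± 0.18 to 0.80 ± 0.22 (n = 3, exact two-sided permutation p = 0.1, 0.15 adjusted over 3 ratios). The smallest p that 3 against 3 libraries can give is 0.1.

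MOB1A counts were 5.78, 5.54 and 5.40 times those of MOB1B in FaDu and 9.19, 7.81 and 13.5 times in shNSUN2. The groups did not overlap, and shNSUN2 replicate 3 had the highest ratio. The mean log2 ratio differed by 0.83 (exact two-sided permutation p = 0.1, 0.15 adjusted) and by 0.61 without shNSUN2 replicate 3. LATS2 counts were 0.433, 0.4055 and 0.5245 times those of LATS1 in FaDu and 0.3195, 0.448 and 0.355 times in shNSUN2. These overlapped, with a difference in the mean log2 ratio of -0.29 (exact two-sided permutation p = 0.3, 0.3 adjusted). In their longest coding sequences the paralogs share 65.1% (LATS2 and LATS1), 76.3% (STK3 and STK4) and 79.6% (MOB1A and MOB1B) of aligned bases. The longest run of identical coding bases was 20, 23 and 17 in the same order.

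**Figure D3:**
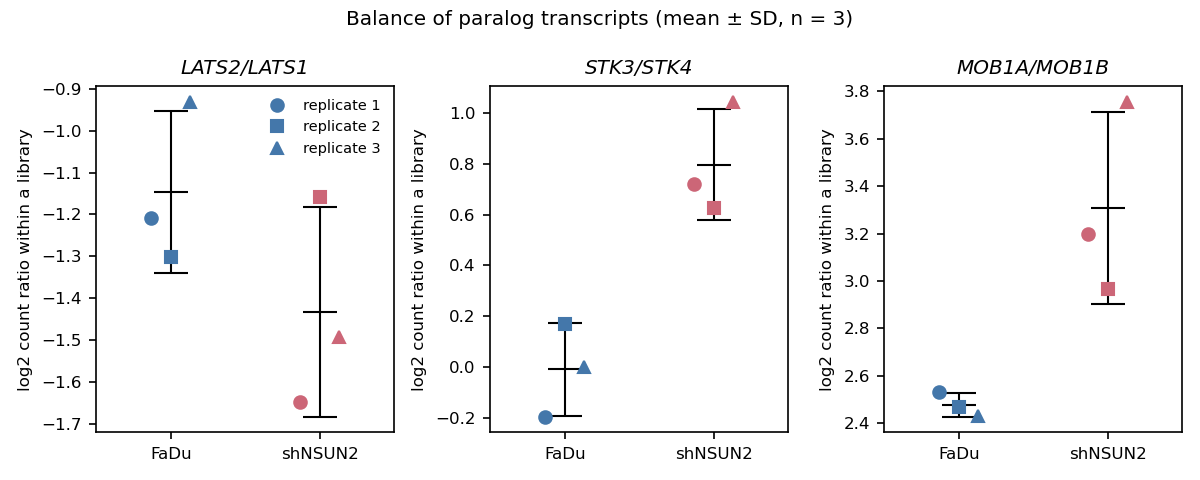
Log2 ratio of estimated counts of 2 paralogs within each library (y axis), by group, with replicates marked by shape and bars for mean ± SD (n = 3). The STK3/STK4 and MOB1A/MOB1B ratios lie higher in every shNSUN2 library, and the LATS2/LATS1 ratios overlap.

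Levels of different genes were compared as CPM per kilobase of exonic sequence. In FaDu MOB1A was far above the rest at 28.1 ± 0.803, followed by SAV1 at 8.35 ± 0.592. STK4 (6.59), LATS1 (5.83), NF2 (5.17) and STK3 (4.70) followed in that order, and each neighbouring pair of these overlapped between libraries. PTPN14 (4.18) and LATS2 (4.09) overlapped with each other, MOB1B was at 3.69, and AMOT was lowest at 0.271 ± 0.0253. In shNSUN2 MOB1A was again highest at 33.1 ± 1.43 and AMOT lowest at 0.737 ± 0.202. NF2 came next to SAV1 there at 7.36, overlapping with it (7.78) and, on the other side, with LATS1 (5.89). STK4 was at 3.35, overlapping with its neighbours LATS2 (3.43) and MOB1B (2.52), and PTPN14 was next to last at 1.92, overlapping with MOB1B.

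**Figure D4:**
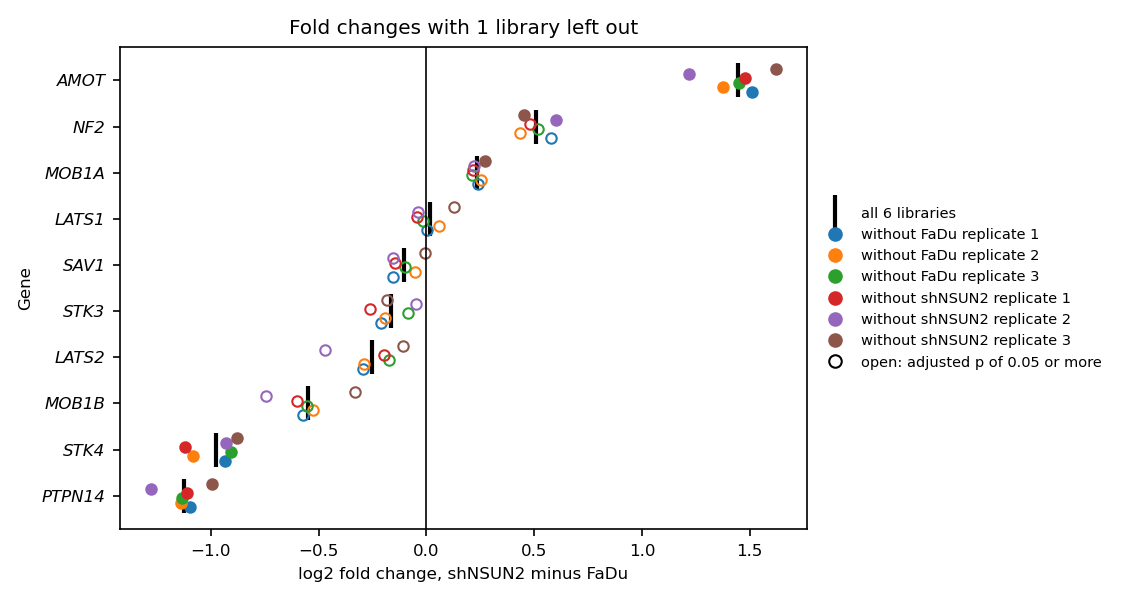
Log2 fold change of each gene (x axis) with all 6 libraries (black bar) and with 1 library left out (coloured points, open where the edgeR adjusted p was 0.05 or more). PTPN14, STK4 and AMOT stay called in all 6 fits, and NF2 is called in 2 of the 6.

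The other genes of the pathway were read from 7 lists by role, which hold 82 genes besides the 10, of which 79 were tested. Of these 5 rose and 9 fell, or 17.7%, close to the 18.5% of all tested genes, with a median log2 fold change of 0.04. The count of rises depended on single libraries: it was 1 without any 1 of the FaDu libraries or without shNSUN2 replicate 1, 8 without shNSUN2 replicate 2 and 9 without shNSUN2 replicate 3. Falls numbered 6, 5 and 6 when FaDu replicate 1, 2 or 3 was dropped, and 13 when shNSUN2 replicate 3 was dropped. Counts over all tested genes moved in the same directions, so these shifts were not particular to the lists. Leaving out FaDu replicate 1, 2 or 3 took all rises from 1629 to 626, 478 and 493. Dropping shNSUN2 replicate 1 took them to 886, replicate 2 to 1682 and replicate 3 to 2090. All falls went from 1903 to 970, 878 and 861 in the fits lacking a FaDu library.

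Among 19 junction and polarity scaffolds, 2 rose and 5 fell, with a median log2 fold change of 0.13. Without any 1 of the FaDu libraries or shNSUN2 replicate 1, none rose and 3 fell, and without shNSUN2 replicate 3, 4 rose and 5 fell. PTPN21, the paralog of PTPN14, fell from 13.1 ± 0.890 to 4.15 ± 1.40 CPM, a log2 fold change of -1.66 (SE 0.24, edgeR adjusted p = 0.00438). Both of these related phosphatases therefore fell. DLG1, a polarity scaffold of the Scribble module, fell from 152 ± 3.75 to 75.4 ± 14.0 CPM (edgeR adjusted p = 0.00491). AMOTL1, the angiomotin paralog, fell from 50.3 ± 8.21 to 25.2 ± 3.33 CPM, or -0.998 on the log2 scale (SE 0.16; edgeR, adjusted p = 0.00687), opposite to AMOT. AMOTL2, the remaining angiomotin, named after its values were seen to complete the family, was at 51.5 ± 1.32 and 51.6 ± 7.96 CPM (log2 fold change 0.00, interval -0.32 to 0.32). Per kilobase, AMOT, AMOTL1 and AMOTL2 were at 0.271, 5.01 and 8.60 CPM in FaDu and at 0.737, 2.51 and 8.62 CPM in shNSUN2. FRMD6, an adaptor related to merlin, fell by 0.73 on the log2 scale, and this call was lost without any 1 FaDu library or shNSUN2 replicate 1 (edgeR adjusted p = 0.0526 to 0.082).

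Among the other kinases of the cascade, 1 of 19 rose and 2 fell. STK38, an NDR kinase related to LATS that also uses MOB1 proteins, rose from 59.0 ± 1.09 to 104 ± 8.57 CPM, or 0.82 on the log2 scale (SE 0.12; edgeR, adjusted p = 0.00386). Its paralog STK38L, named after its values were seen, was at 34.0 ± 7.56 and 20.7 ± 6.56 CPM, with all shNSUN2 libraries below all FaDu libraries. Its log2 fold change of -0.72 did not pass (edgeR adjusted p = 0.1055), but DESeq2 and the GC and length correction each called STK38L lower. MAP4K4, a kinase that can phosphorylate LATS in place of STK3 and STK4, fell from 170 ± 16.3 to 105 ± 8.995 CPM (edgeR adjusted p = 0.0094, and 0.0543 without FaDu replicate 2). TNIK, of the same kinase family, fell by 0.93 on the log2 scale, a call lost without any 1 FaDu library or shNSUN2 replicate 1 (edgeR adjusted p = 0.0808 to 0.111). The median log2 fold change of this list was -0.245. The falls in this list were 1, 0 and 1 with FaDu replicate 1, 2 or 3 dropped and 3 and 4 with shNSUN2 replicate 2 or 3 dropped, and 2 genes rose without shNSUN2 replicate 2. With all 6 libraries, DESeq2, upper-quartile scaling and the GC and length correction each called 5 kinases lower, and edgeR with no filter on low counts called 4; MAP4K4, TNIK and MAP4K5 were among them in each.

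Of 5 tested FAT and DCHS cadherins 1 fell: FAT2, a protocadherin of squamous epithelium, went from 409 ± 24.2 to 125 ± 16.5 CPM, or -1.71 on the log2 scale (SE 0.13; edgeR, adjusted p = 0.000515). With all 6 libraries no gene of this list was called higher by edgeR or DESeq2, and 1 was at an unadjusted p under 0.05. Dropping shNSUN2 replicate 3 left FAT1 called higher by edgeR, and dropping shNSUN2 replicate 2 left FJX1 called higher. Of 17 genes of STRIPAK, the phosphatase complex that holds STK3 and STK4 inactive, 1 rose and 1 fell. STRIP2 fell from 59.8 ± 3.16 to 18.7 ± 1.60 CPM, or -1.68 on the log2 scale (SE 0.13; edgeR, adjusted p = 0.00047). STRN4 rose from 59.4 ± 5.65 to 83.9 ± 10.5 CPM (edgeR adjusted p = 0.0453), a call lost in 8 of the 11 settings, with adjusted p of 0.0522 to 0.177 in the 5 of 6 fits on 5 libraries that kept shNSUN2 replicate 2. RASSF1, a partner of STK3 and STK4, rose from 7.965 ± 0.389 to 13.1 ± 3.04 CPM (edgeR adjusted p = 0.037), a call lost without any 1 FaDu library or shNSUN2 replicate 1 (0.0689 to 0.124). Upper-quartile scaling also ended it (0.0513), and it was lost in 6 of the 11 settings in all.

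With all 6 libraries, edgeR's test called none of the 5 LIM domain inhibitors of LATS and none of the 9 ubiquitin ligases and casein kinases. At an unadjusted p under 0.05, 1 LIM gene was higher and 1 lower, and 1 gene of the ligase list was higher. DESeq2 called 1 LIM gene, TRIP6, higher and none of the ligase list. Other edgeR fits did make calls in these lists, and the genes are named after those calls were seen. LIMD1 and ZYX were lower and DCAF1, of the ligase list, was higher once shNSUN2 replicate 3 was dropped. TRIP6 was higher once shNSUN2 replicate 2 was dropped. The GC and length correction called TRIP6 and DCAF1 higher and ZYX lower, and upper-quartile scaling called LIMD1 lower.

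**Figure D5:**
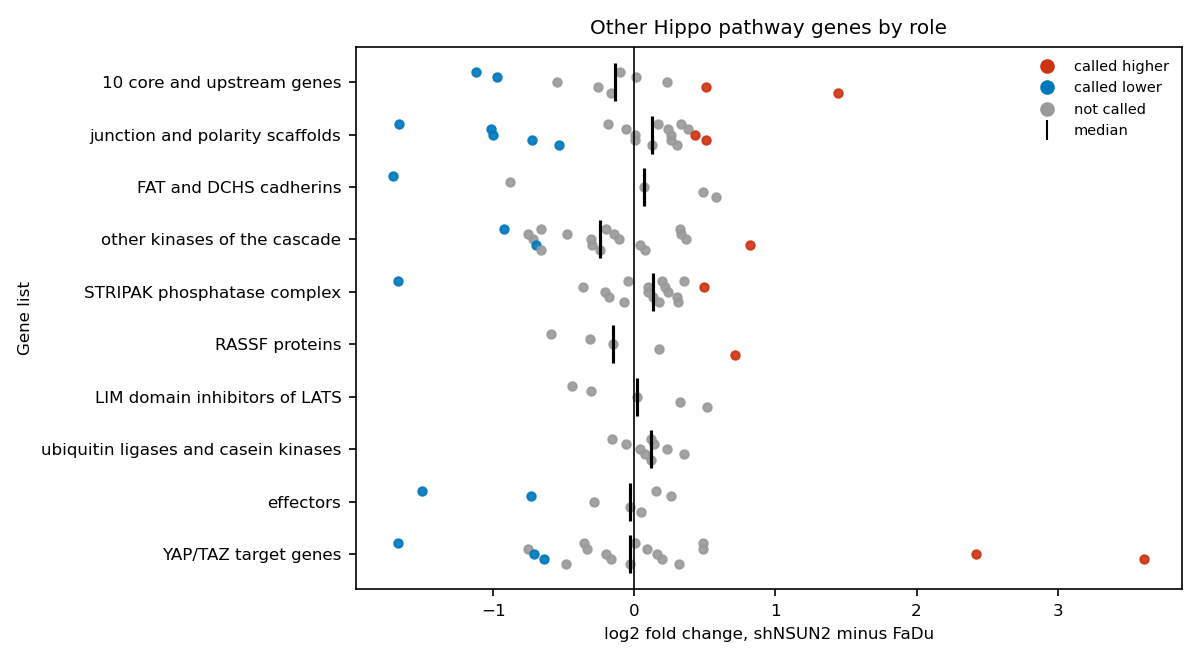
Log2 fold changes (x axis) of the 10 genes and of the tested genes of each list, 1 point per gene, coloured by call, with the list's median as a black bar. The medians lie within -0.245 and 0.134, and the called genes of the scaffold list lie on both sides of 0.

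Downstream, YAP1 was at 141 ± 6.62 and 116 ± 10.9 CPM (log2 fold change -0.28, SE 0.12) and WWTR1 at 65.5 ± 2.77 and 64.2 ± 2.67 CPM, neither past the test (edgeR adjusted p = 0.1325 and 0.881). Of 7 tested effectors (YAP1, WWTR1, the TEAD factors and VGLL4), 2 fell and none rose, or 28.6%, against 18.5% of all tested genes. TEAD1 fell from 49.8 ± 0.901 to 17.5 ± 3.68 CPM, or -1.51 on the log2 scale (SE 0.17; edgeR, adjusted p = 0.0016). TEAD2, TEAD3 and TEAD4, named after their values were seen, were at 28.65, 35.5 and 35.1 CPM in FaDu. In shNSUN2 they were at 31.95, 36.7 and 42.1 CPM, with groups overlapping, and did not pass (edgeR adjusted p = 0.543, 0.85 and 0.381). VGLL4, a cofactor that competes with YAP1 for TEAD, fell by 0.73 on the log2 scale, a call lost without any 1 FaDu library (edgeR adjusted p = 0.0504 to 0.0538). Of 19 tested YAP/TAZ target genes other than LATS2 and PTPN14, 2 rose and 3 fell, or 26.3%, against 18.5% of all tested genes. The median log2 fold change of the 19 was -0.03, and 14 did not pass. CCN1 and CCN2, named after their values were seen, were among the 14. They were at 71.0 and 2.48 CPM in FaDu and at 88.35 and 2.64 CPM in shNSUN2 (edgeR adjusted p = 0.251 and 0.814). IGFBP3 rose from 155 ± 16.1 to 827 ± 152.5 CPM and AXL fell from 28.3 ± 1.65 to 8.88 ± 1.88 CPM (edgeR adjusted p = 0.000335 and 0.00164). TGFB2 rose from 0.531 ± 0.263 to 6.57 ± 0.651 CPM (edgeR adjusted p = 0.00135), a FaDu level that rests on few counts. GADD45A fell by 0.64 on the log2 scale, a call lost without any 1 FaDu library or shNSUN2 replicate 1 (edgeR adjusted p = 0.06 to 0.104). Dropping shNSUN2 replicate 3 gave 3 target genes higher and 4 lower. The 3 target genes that fell were 1 each without FaDu replicate 1, 2 or 3 or shNSUN2 replicate 1.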

How the data were processed

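RNA sequencing was deposited by the authors as 1 table of estimated counts per gene for 6 libraries, whole numbers that were used as they stand. Columns were matched to samples by title. Per the submitters' processing notes, HISAT2 2.0, StringTie 1.3.0 and Bowtie 0.12.2 were used, with no roles given. The only build those notes name, mm8, is of the mouse and does not match the human identifiers. The strand setting, RNA selection and human build were not given in the sources used here. Reads of antisense or otherwise overlapping genes may therefore be mixed. In each library 4 was 3.25 to 3.81 times as frequent as 3 and 5 were on average. A fragment is therefore often worth several units, and no counting interval is given.

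Symbols, positions, exonic lengths and GC content came from a gene name table and GENCODE 29 (GRCh38; 58817 identifiers got a symbol), and promoters from RefSeq. The test was that of edgeR 4.0.16, run in R 4.3.3 (glmQLFit and glmQLFTest, robust, TMM, filterByExpr with a minimum count of 10 and total of 15, group alone in the design). The SE is the log2 fold change over the square root of F. Intervals use the fit's degrees of freedom. Paralog ratios had 0.5 added to each count and an exact permutation test. The procedure was tested on simulated data. It recovered 6.4% of simulated log2 fold changes of 0.5, 50% of those of 1 and 96.4% of those of 2. A gene that did not pass may therefore still differ by such small amounts.

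Alternatives were DESeq2 1.42.0, upper-quartile scaling, no filter, the replicate block, lowess offsets on GC and length (span 0.3), and each library left out. GC correction without shNSUN2 replicate 3 was added after seeing the data. The 10 genes and the lists were chosen with earlier results of these data known. Named are the 10, NSUN2, YAP1, WWTR1, TEAD1 and, per list, up to 4 called genes of smallest adjusted p with at least 1 CPM. Other gene lists named only as markers were smooth muscle (11.1 to 14.0 CPM summed in FaDu, 7.33 to 23.1 in shNSUN2), leukocytes (8.18 to 10.3 and 9.05 to 11.7) and fibroblasts (8.85 to 9.45 and 5.92 to 11.2). Of 6 tested smooth muscle markers 3 were called higher and 1, ACTA2, lower. ACTA2 fell from 8.93 ± 1.58 to 2.78 ± 1.03 CPM, so the sum of this list hides the rises. Motifs besides that of TEAD were looked over and are not reported.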

Additional observations from a re-analysis of the deposited data

How the results depend on the processing

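PTPN14, STK4 and AMOT kept direction and call in all 11 alternatives, and NF2 kept its direction in all and its call in 4. Genes called higher and lower were 1629 and 1903, and ranged from 478 to 2090 and from 861 to 2181 with 1 library left out. Hippo genes called higher were 2, and 1 with upper-quartile scaling or no filter, 1 to 3 with 1 library left out. Genes of the 7 other lists called higher were 5, then 2 with upper-quartile scaling, 10 with the GC and length correction, 11 with that correction without shNSUN2 replicate 3, and 1 to 9 with 1 library left out. Those called lower were 9, and 5 to 13 with 1 library left out. The cause of these shifts was not tested.

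Same-numbered libraries did not deviate together (r = -0.0364 to 0.0235), and 2 of 6 correlated best with their own number. With the replicate block, 969 genes were called higher and 1401 lower. In that fit 1 of the 10 Hippo genes was higher, NF2 having an adjusted p of 0.0603, and 1 gene of the other lists. The block changed no other call among the 10. It also ended the RASSF1 call (edgeR adjusted p = 0.0656).

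LATS1 changed sign with upper-quartile scaling (-0.0631), no filter (-0.0141), and without FaDu replicate 3, shNSUN2 replicate 1 or shNSUN2 replicate 2. It ran from -0.0452 to 0.1286 with 1 library left out. STK3 (0.0637) and WWTR1 (0.0771) changed sign with the GC and length correction. None of these values passed the test. Of 17 other named genes, 10 stayed called in all 11 alternatives. The paralog differences kept their sign in every alternative run: -0.42 to -0.18 for LATS2/LATS1, 0.68 to 0.90 for STK3/STK4 and 0.61 to 1.00 for MOB1A/MOB1B with 1 library left out.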
